A study of Sus scrofa with 13 samples.

Results

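The enzymes of glycolysis were followed in loin muscle through 10 listed genes, 1 for each main step from hexokinase to lactate dehydrogenase except triosephosphate isomerase. The listed genes were HK2, GPI, PFKM, ALDOA, GAPDH, PGK1, PGAM2, ENO3, PKM and LDHA, taken by symbol. Of these, 9 were matched to an identifier among the 25322 genes counted in both breeds, and ALDOA, the muscle aldolase, had no matched identifier and was not analysed here. RNA sequencing had been performed on the longissimus lumborum, the loin muscle, of 13 female pigs aged 6 months. The Hampshire breed gave 3 pigs with high loin weight (pigs 8, 9 and 10) and 3 with low loin weight (pigs 1, 2 and 3). The Pietrain breed gave 4 pigs with high loin weight (pigs 1, 2, 6 and 7) and 3 with low loin weight (pigs 3, 5 and 8). No genotype or treatment is given in the labels, tissue was collected directly after slaughter, and each library stands for 1 pig. The question put to the data was which genes differ with muscle mass within each breed.

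Glycolysis splits glucose into pyruvate and yields ATP without oxygen, and lactate dehydrogenase then turns pyruvate into lactate and regenerates NAD+. Fast-twitch fibres, which make up most of the pig loin, rely on this route during short bursts of work, and after slaughter the same enzymes turn glycogen into lactate and so lower the pH of pork. Most steps are catalysed by isozymes encoded by separate genes, and muscle uses its own forms, such as PFKM, PGAM2 and ENO3, next to the forms found in most tissues.

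The sum of counts per library lay between 11312755 and 20134612. Levels are given as CPM, the counts of a gene scaled to a common library size, adjusted by trimmed mean of M-values (TMM) factors of 0.814 to 1.12, the lowest of them in Hampshire high-weight pig 9. The 9 enzymes together took 6.31% ± 0.282 (SD, n = 3) of all counts in Hampshire low-weight pigs, 7.68% ± 1.23 (n = 3) in Hampshire high-weight pigs, 6.80% ± 0.341 (n = 3) in Pietrain low-weight pigs and 6.92% ± 0.807 (n = 4) in Pietrain high-weight pigs. The highest share, 9.10%, belonged to Hampshire high-weight pig 9. Muscle identity was plain in every group: ACTA1, skeletal muscle actin, had group means of 40983 to 106923 CPM and CKM, muscle creatine kinase, of 16754 to 47872 CPM. Of 2 matched heart genes, the cardiac natriuretic peptide gene NPPB did not exceed 0.182 CPM in any pig. The other, TNNT2, ran from 1.71 to 63.6 CPM in Hampshire low-weight pigs and from 2.04 to 9.36 CPM in Hampshire high-weight pigs. It had 1.98 to 3.94 CPM in Pietrain low-weight and 0.489 to 7.45 CPM in Pietrain high-weight pigs. In such bulk tissue, fewer cells of a type and less RNA per cell cannot be told apart.

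In Hampshire pigs, 3 of the 9 enzymes differed between high and low loin weight. HK2 was 3.89-fold lower at high loin weight, while PGAM2 rose 2.08-fold and GAPDH 1.78-fold, and the other 6 did not pass the test. In Pietrain pigs none of the 9 passed it. A gene was called when edgeR's quasi-likelihood test gave a Benjamini-Hochberg adjusted p under 0.05 over all genes tested and the fold change was at least 1.2. The 3 called enzymes make 33.3% of the 9, beside 26.6% of the 12228 genes tested in Hampshire. The 2 higher enzymes stand beside a background of 12% of genes called higher, and the 1 lower enzyme beside 14.6% called lower. The CPM values of the 2 Hampshire groups did not overlap for 5 of the 9 enzymes (HK2, PFKM, GAPDH, PGAM2 and ENO3), against 45.9% of all genes tested. In Pietrain 0 of the 9 enzymes and 0% of the 12065 genes tested were called, 0 enzymes passed an unadjusted p of 0.05 against 398 of all genes, and DESeq2 called 0 of the 9 and 1 of all genes. None of the 9 separated the Pietrain groups without overlap, against 4.59% of genes. The median log2 fold change of the 9 enzymes was -0.04 in Hampshire and 0.01 in Pietrain, and that of all genes tested was 0.03 and 0.02.

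**Figure D1:**
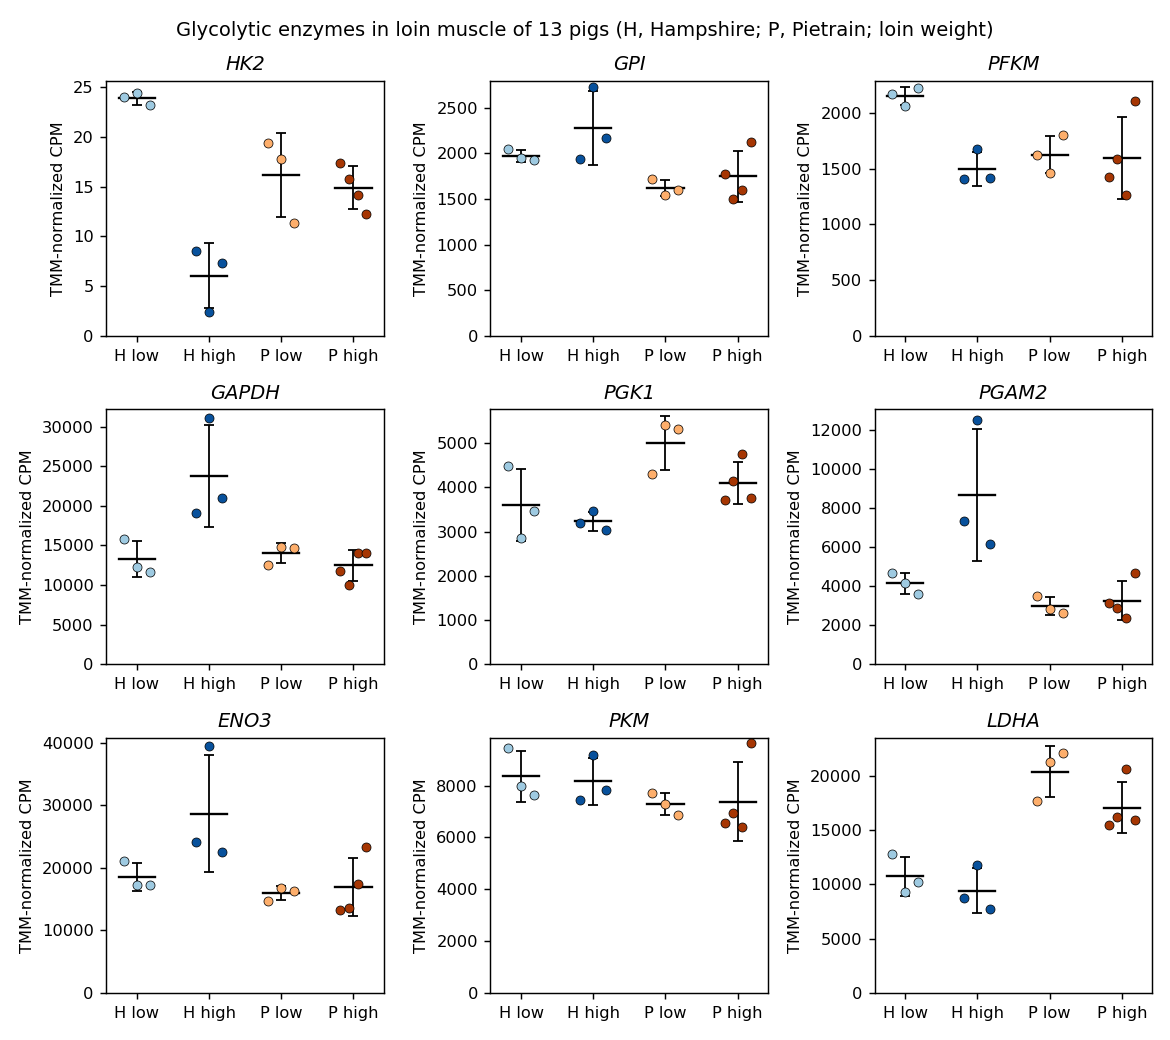
TMM-scaled CPM of the 9 enzymes (1 panel each, axis from 0) in every pig (points) by breed and loin weight, with the group mean (bar) and SD (whisker). HK2 lies at 23.2 to 24.4 in Hampshire low-weight pigs and at 2.36 to 8.51 in Hampshire high-weight pigs, and LDHA is higher in all 7 Pietrain pigs than in any Hampshire pig.

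HK2 encodes the insulin-responsive hexokinase of muscle, which phosphorylates glucose as it enters the cell. Its identifier is ENSSSCG00000008261, at 71331772 to 71407448 on chromosome 3 of build Sscrofa10.2. In Hampshire pigs, HK2 stood at 24.0, 24.4 and 23.2 CPM in low-weight pigs 1, 2 and 3, and at 8.51, 2.36 and 7.35 CPM in high-weight pigs 8, 9 and 10. All 3 high-weight pigs lay below all 3 low-weight pigs, and pig 9 was the lowest of all 13. The log2 fold change was -1.96 (SE 0.373; edgeR adjusted p = 0.00815). The call held in all 6 fits that left out 1 pig, with log2 fold changes from -2.29 to -1.62. Pietrain low-weight pigs 3, 5 and 8 had 19.4, 17.8 and 11.4 CPM, and high-weight pigs 1, 2, 6 and 7 had 17.4, 15.8, 14.2 and 12.3 CPM. These groups overlapped (log2 fold change -0.09, SE 0.234, edgeR adjusted p = 0.965). HK2 was by far the least counted of the 9, with 26 to 503 counts per pig, and its level ranked at the 62.6th percentile of genes, while the other 8 ranked at the 99.6th or above.

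GPI, glucose-6-phosphate isomerase, turns glucose 6-phosphate into fructose 6-phosphate. Its model (ENSSSCG00000002873) lies at 39517086 to 39547942 on chromosome 6. It had 2047, 1943 and 1921 CPM in the Hampshire low-weight pigs and 1933, 2727 and 2164 CPM in the high-weight pigs, again with pig 9 at the extreme. The groups overlapped and the gene was not called (log2 fold change 0.20, SE 0.194, edgeR adjusted p = 0.459). Pietrain values were 1718, 1541 and 1594 CPM at low weight and 1775, 1495, 1594 and 2127 CPM at high weight, also overlapping.

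PFKM is the muscle subunit of phosphofructokinase, the committing and most tightly regulated step of the pathway. The model ENSSSCG00000021129 lies at 81676291 to 81694184 on chromosome 5. Levels were 2168, 2057 and 2222 CPM in Hampshire low-weight pigs and 1408, 1673 and 1411 CPM in high-weight pigs. Every high-weight pig was below every low-weight pig, yet the difference narrowly missed the threshold (log2 fold change -0.52, SE 0.174, edgeR adjusted p = 0.0525). With DESeq2 the same contrast gave an adjusted p of 0.00718, and without high-weight pig 9 edgeR gave 0.0424, so that PFKM sits at the boundary of the call. In Pietrain, PFKM had 1619, 1459.5 and 1797 CPM at low weight against 1421, 1585, 1260.2 and 2107 CPM at high weight, with no separation (log2 fold change 0.01, SE 0.217).

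GAPDH, glyceraldehyde-3-phosphate dehydrogenase, makes the NADH of the pathway and is widely used as a reference gene for expression. Its model (ENSSSCG00000000694) covers only 818 bases, from 66448694 to 66449511 on chromosome 5, where the RefSeq gene of the later build Sscrofa11.1 spans 5517 bases. In Hampshire low-weight pigs it reached 15840.3, 12269.6 and 11681 CPM, and in high-weight pigs 19056, 31099 and 21038 CPM. The groups did not overlap, and the log2 fold change was 0.83 (SE 0.265; edgeR adjusted p = 0.0463). The call held in 1 of the 6 fits that left out 1 pig, the one without high-weight pig 8. It was lost without low-weight pigs 1, 2 or 3 (edgeR adjusted p = 0.0505, 0.132 and 0.164) and without high-weight pigs 9 or 10 (edgeR adjusted p = 0.103 and 0.0887), and also with no filter on low counts (0.0545) or with at least 10 counts required in every pig (0.0629). Pietrain pigs had 12550.3, 14874 and 14663 CPM at low weight and 11760.2, 10056, 14082 and 14029.8 CPM at high weight, with overlap (log2 fold change -0.13, SE 0.179).

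PGK1, phosphoglycerate kinase, makes the ATP that repays the energy spent in the upper part of the pathway. The model ENSSSCG00000012440 lies at 71339754 to 71352751 on chromosome X. Its 13 values ran from 2865 to 5401 CPM. Hampshire low-weight pigs had 4476, 2865 and 3459.7 CPM and high-weight pigs 3206, 3456 and 3036 CPM, whereas Pietrain low-weight pigs had 4304, 5401 and 5319 CPM and high-weight pigs 3727, 4144, 4763 and 3769.9 CPM. Neither breed showed a loin weight difference beyond the spread (log2 fold change -0.16, SE 0.218, in Hampshire and -0.25, SE 0.172, in Pietrain). All 4 Pietrain high-weight pigs lay above the 3 Hampshire high-weight pigs.

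PGAM2, the muscle phosphoglycerate mutase, moves the phosphate of 3-phosphoglycerate to the neighbouring carbon. The model ENSSSCG00000016720 lies at 53423634 to 53425884 on chromosome 18. Hampshire low-weight pigs had 4700.2, 4162 and 3594 CPM and high-weight pigs 7332, 12558 and 6182 CPM. Again no high-weight pig fell into the range of the low-weight pigs, and the log2 fold change was 1.06 (SE 0.287; edgeR adjusted p = 0.0276). The call was lost without low-weight pig 2 (edgeR adjusted p = 0.0743), without low-weight pig 3 (edgeR adjusted p = 0.112) and without high-weight pig 9, where the log2 fold change was 0.67 (edgeR adjusted p = 0.0552). Pietrain values of 3522, 2849.5 and 2627 CPM at low weight and 3151, 2872, 2397 and 4674 CPM at high weight overlapped (log2 fold change 0.16, SE 0.249).

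ENO3 is the muscle enolase, which removes water to form phosphoenolpyruvate. The model ENSSSCG00000017904 lies at 54023317 to 54028701 on chromosome 12. In Hampshire, low-weight pigs had 21058, 17179 and 17252 CPM and high-weight pigs 24110.1, 39396 and 22483 CPM. These ranges did not overlap, but the gene was not called (log2 fold change 0.63, SE 0.273, edgeR adjusted p = 0.117), and without pig 9 the log2 fold change was 0.30. DESeq2 placed it past the threshold with an adjusted p of 0.0396. In Pietrain, values of 14643, 16794 and 16316 CPM at low weight overlapped with 13271, 13630.1, 17406 and 23354 CPM at high weight (log2 fold change 0.13, SE 0.222).

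PKM, pyruvate kinase, forms pyruvate and the remaining ATP. The gene-level counts of ENSSSCG00000001930 (65549984 to 65575391 on chromosome 7) do not separate its muscle and embryonic splice forms. Hampshire low-weight pigs had 9469, 7978 and 7633 CPM and high-weight pigs 7462, 9191 and 7823 CPM. Pietrain low-weight pigs had 7709.9, 7299 and 6847 CPM and high-weight pigs 6543, 6926, 6389.8 and 9649 CPM. Among the 9 enzymes PKM had the smallest log2 fold change in Hampshire (-0.04, SE 0.205) and 0.05 (SE 0.197) in Pietrain.

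LDHA is the lactate dehydrogenase subunit of fast muscle, which favours lactate formation. The model ENSSSCG00000013366 lies at 43898277 to 43909456 on chromosome 2. Hampshire low-weight pigs had 12762, 9279 and 10235 CPM and high-weight pigs 8779, 11776 and 7726 CPM. Pietrain low-weight pigs had 17701, 21266 and 22139 CPM and high-weight pigs 15509, 16209.9, 20642 and 15964 CPM. Loin weight made no difference beyond the spread in Hampshire (log2 fold change -0.20, SE 0.240) or Pietrain (-0.22, SE 0.171), but the lowest Pietrain pig was above the highest Hampshire pig.

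Whether the loin weight effect itself differed by breed was tested as the Hampshire effect minus the Pietrain effect in 1 fit over all 13 pigs. For this difference a gene was called on the adjusted p under 0.05 alone, without the fold threshold. HK2 was the 1 enzyme of 9 for which it did (difference in log2 fold change -1.84, SE 0.465, edgeR adjusted p = 0.0338), which is 11.1% of the enzymes beside 5.9% of the 12831 genes tested. It was also the 1 enzyme below zero among those called, beside a background of 4.22%, and 0 enzymes were called above zero, beside 1.68%. GAPDH (1.01, SE 0.294, edgeR adjusted p = 0.0594) and PGAM2 (0.94, SE 0.384, edgeR adjusted p = 0.165) had an unadjusted p under 0.05 but were not called, and DESeq2 did call GAPDH, with an adjusted p of 0.0132. For PGAM2 the Hampshire effect passed the test and the Pietrain effect did not, and a difference between them was thus not shown. The HK2 difference lost its call in 7 of the 13 fits that left out 1 pig, with edgeR adjusted p-values of 0.0503, 0.0591 and 0.0656 without Hampshire low-weight pigs 1, 2 and 3, 0.0532 and 0.0738 without Pietrain low-weight pigs 5 and 8, and 0.0561 and 0.0505 without Pietrain high-weight pigs 1 and 2. Its size stayed between -2.21 and -1.53.

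**Figure D2:**
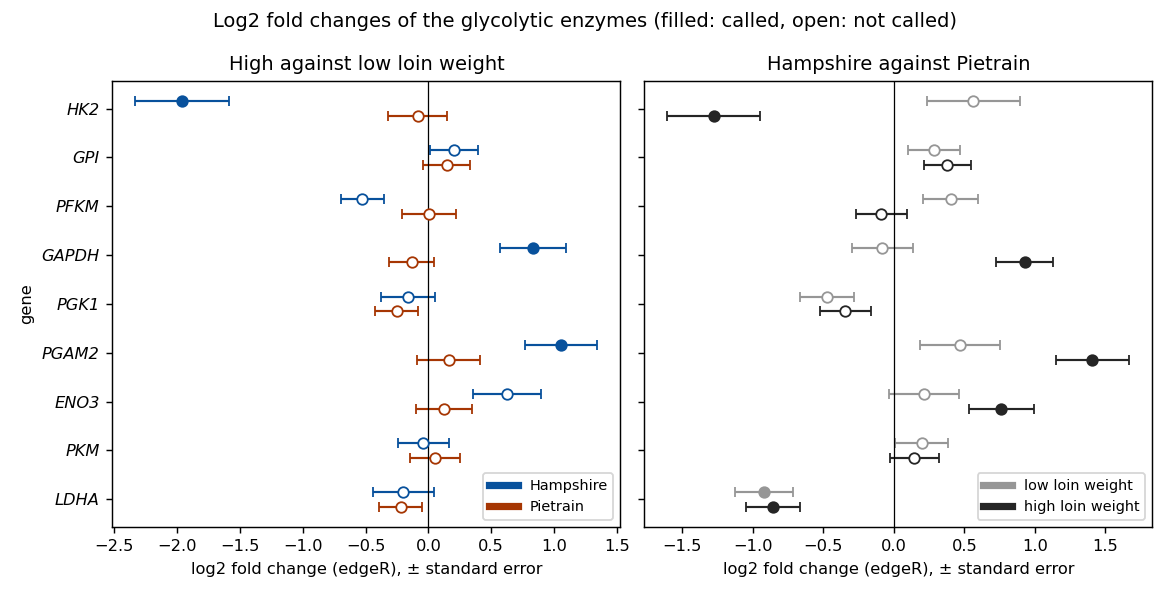
Log2 fold changes (points) with standard errors (whiskers) of the 9 enzymes, for high against low loin weight in each breed (left) and for Hampshire against Pietrain at each loin weight (right), with filled points for called genes. In Hampshire HK2 lies at -1.96 and PGAM2 at 1.06, all Pietrain points lie between -0.25 and 0.16, and LDHA lies at -0.92 and -0.86 in the breed comparisons.

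Between breeds, LDHA was lower in Hampshire at both loin weights. These comparisons use the same groups of pigs as the within-breed ones and are thus not independent of them. The counts of each breed came in a table of their own, so that breed and anything else that differed between the sets of libraries cannot be told apart. At low loin weight LDHA was the 1 enzyme called (log2 fold change -0.92, SE 0.204, edgeR adjusted p = 0.0151), a level 1.89-fold lower in Hampshire. That is 11.1% of the 9, beside 17.9% of all genes tested, with 0 enzymes called higher beside 7.84% and 1 lower beside 10.1%. The call was lost without Hampshire low-weight pigs 2 or 3 (edgeR adjusted p = 0.0813 and 0.0581) and without Pietrain low-weight pigs 5 or 8 (edgeR adjusted p = 0.0621 and 0.0639). Low-weight pigs of the breeds did not overlap for 6 of the 9 enzymes, beside 42.8% of genes. Of those 6, LDHA was lower in Hampshire, and HK2, GPI, PFKM, PGAM2 and ENO3 had higher CPM in every Hampshire pig without being called (log2 fold changes 0.22 to 0.56, edgeR adjusted p-values 0.151 to 0.553). PGK1 overlapped and was not called (log2 fold change -0.48, SE 0.191, edgeR adjusted p = 0.0924), although DESeq2 gave an adjusted p of 0.0368 and leaving out Hampshire low-weight pig 1 gave an edgeR adjusted p of 0.0422.

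At high loin weight 5 of the 9 enzymes differed by breed, 55.6% beside 46.8% of all genes tested. PGAM2 (log2 fold change 1.41, SE 0.261, edgeR adjusted p = 0.000778), GAPDH (0.93, SE 0.200, edgeR adjusted p = 0.00208) and ENO3 (0.76, SE 0.231, edgeR adjusted p = 0.0153) were higher in Hampshire, 3 enzymes beside a background of 22.6%. HK2 (-1.28, SE 0.328, edgeR adjusted p = 0.00602) and LDHA (-0.86, SE 0.193, edgeR adjusted p = 0.00272) were lower in Hampshire, 2 enzymes beside 24.2%. High-weight pigs of the breeds did not overlap for HK2, GAPDH, PGK1, PGAM2 and LDHA, 5 of 9 beside 48.7% of genes. ENO3 overlapped, since Pietrain pig 7 with 23354 CPM exceeded Hampshire pig 10 with 22483 CPM, and its call was lost without Hampshire high-weight pig 9 (log2 fold change 0.41, edgeR adjusted p = 0.161) and without Pietrain high-weight pig 1 (0.65, edgeR adjusted p = 0.0511). GPI, not called here, passed without Pietrain high-weight pig 7 (log2 fold change 0.49, edgeR adjusted p = 0.0300).

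Across all genes, the Hampshire fold changes fell with the length of the counted gene model. Genes shorter than 5 kb on the chromosome had a median log2 fold change of 0.46, those of 5 to 20 kb 0.19, those of 20 to 50 kb -0.12 and those over 50 kb -0.34. Across the 9945 tested genes with a deposited position, length and log2 fold change correlated at Spearman's rho -0.39 in Hampshire, and across 9964 genes at -0.09 in Pietrain. Between breeds, across 9975 genes, rho was -0.21 at low and -0.39 at high loin weight. For the difference of the loin weight effect between breeds it was -0.34. The genes of one fit share libraries and are not independent. GAPDH (0.818 kb), PGAM2 (2.25 kb) and ENO3 (5.39 kb), the 3 with the highest Hampshire log2 fold changes, had the 3 shortest deposited models, and HK2, the lowest, had the longest (75.7 kb). The 5 enzymes in between did not fall with length, with -0.20 for LDHA (11.2 kb), -0.16 for PGK1 (13.0 kb), -0.52 for PFKM (17.9 kb), -0.04 for PKM (25.4 kb) and 0.20 for GPI (30.9 kb). The order rests on the deposited models, since RefSeq for Sscrofa11.1 gives PGAM2 18956 bases, more than the 13122 of LDHA, and gives PFKM 49580 and PKM 60974 bases. With a trend on deposited model length taken out per pig, HK2 was still called in Hampshire (log2 fold change -1.62, edgeR adjusted p = 0.0121). PGAM2 was then not called (0.66, edgeR adjusted p = 0.0881), nor was GAPDH (0.44, edgeR adjusted p = 0.195), while PFKM was (-0.53, edgeR adjusted p = 0.0476). Under the same offset the HK2 difference between breeds was -1.56 and not called (edgeR adjusted p = 0.0558). At high loin weight GAPDH (0.30, edgeR adjusted p = 0.223) and ENO3 (0.26, edgeR adjusted p = 0.338) were not called under it, and GPI (0.61, edgeR adjusted p = 0.0126) and PGK1 (-0.51, edgeR adjusted p = 0.0325) were. RNA integrity numbers per pig are not given in the labels beyond a minimum of 7.5, and their part in the length trend was not tested.

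**Figure D3:**
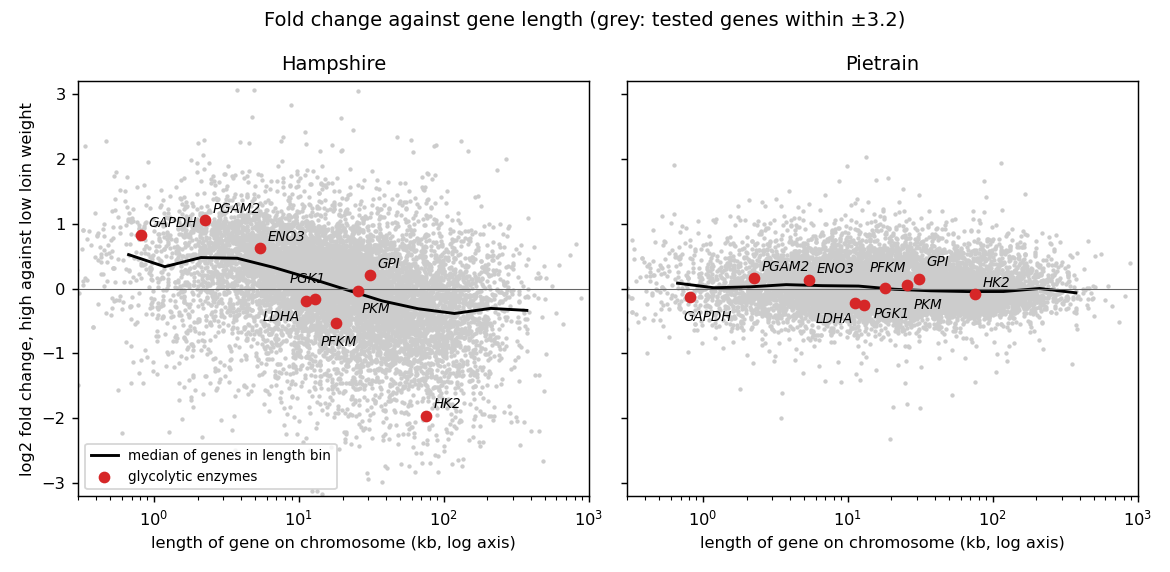
Log2 fold change of high against low loin weight (vertical axis) against the deposited model length in kb (log axis) in Hampshire (left) and Pietrain (right), with tested genes in grey, their median per length bin as a line and the 9 enzymes in red. In Hampshire the line falls with length, and GAPDH, PGAM2 and ENO3 lie at its short end and HK2 at its long end, whereas in Pietrain it stays near 0.

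The same steps have other isozymes, of which 14 of 16 listed were matched and 9 passed the filter on low counts. In Hampshire all 9 had log2 fold changes above 0, with a median of 0.60. Of them 3 were called, all higher at high loin weight, beside 12% of all genes tested. ALDOC, the brain-type aldolase, rose from 3.78 ± 1.40 to 14.7 ± 14.0 CPM (SD, n = 3 each; log2 fold change 1.93, SE 0.601, edgeR adjusted p = 0.0439). LDHB, the heart-type lactate dehydrogenase subunit, rose from 29.0 ± 8.65 to 78.1 ± 13.5 CPM (1.42, SE 0.229, edgeR adjusted p = 0.00490). ENO1, the enolase of most tissues, rose from 47.6 ± 14.4 to 81.3 ± 9.28 CPM (0.76, SE 0.241, edgeR adjusted p = 0.0453). Not called were HK1 (0.46), HK3 (0.23), PFKL (0.84), PFKP (0.60), PGAM1 (0.15) and TPI1 (0.31), the triosephosphate isomerase that has no muscle form of its own. In Pietrain 0 of the 9 were called, and their median was 0.35. Against Pietrain, PFKL, the liver phosphofructokinase subunit, was called higher in Hampshire at low loin weight (1.39, edgeR adjusted p = 0.0195), beside 7.84% of all genes. HK1, PFKL, ALDOC and ENO1 were called higher in Hampshire at high loin weight, beside 22.6%. The LDHB model lies on chromosome 2, while RefSeq for Sscrofa11.1 lists genes of that symbol on chromosomes 2 and 5, so that its counts may not hold the whole of LDHB.

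Since total counts cancel in a ratio of isozymes within a pig, 6 such ratios were compared by an exact two-sided permutation test, giving 12 tests in the 2 breeds. With 3 pigs against 3 the smallest p that the exact test allows is 0.1, so the Hampshire ratios could not pass, and none of the 12 did after adjustment (lowest adjusted p = 0.2). HK2 to HK1, on the log2 scale, was 1.50, 0.57 and 1.04 in Hampshire low-weight pigs and -0.77, -2.88 and -0.85 in high-weight pigs. Every low-weight pig thus had a higher CPM of HK2 than of HK1 and every high-weight pig fewer (difference -2.54, exact permutation p = 0.1). LDHA to LDHB was 9.02, 7.87 and 8.71 against 6.70, 7.06 and 6.94 (difference -1.63, exact permutation p = 0.1). No overlap was seen either for PFKM to PFKP (-0.99), PFKM to PFKL (-1.36) and PGAM2 to PGAM1 (0.87), whereas ENO3 to ENO1 overlapped (-0.22, exact permutation p = 0.6). In Pietrain, PFKM to PFKL alone separated the groups, at 8.51, 9.16 and 9.56 in low-weight pigs against 8.31, 8.36, 8.08 and 8.49 in high-weight pigs (difference -0.77, exact permutation p = 0.0286, adjusted p = 0.2).

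**Figure D4:**
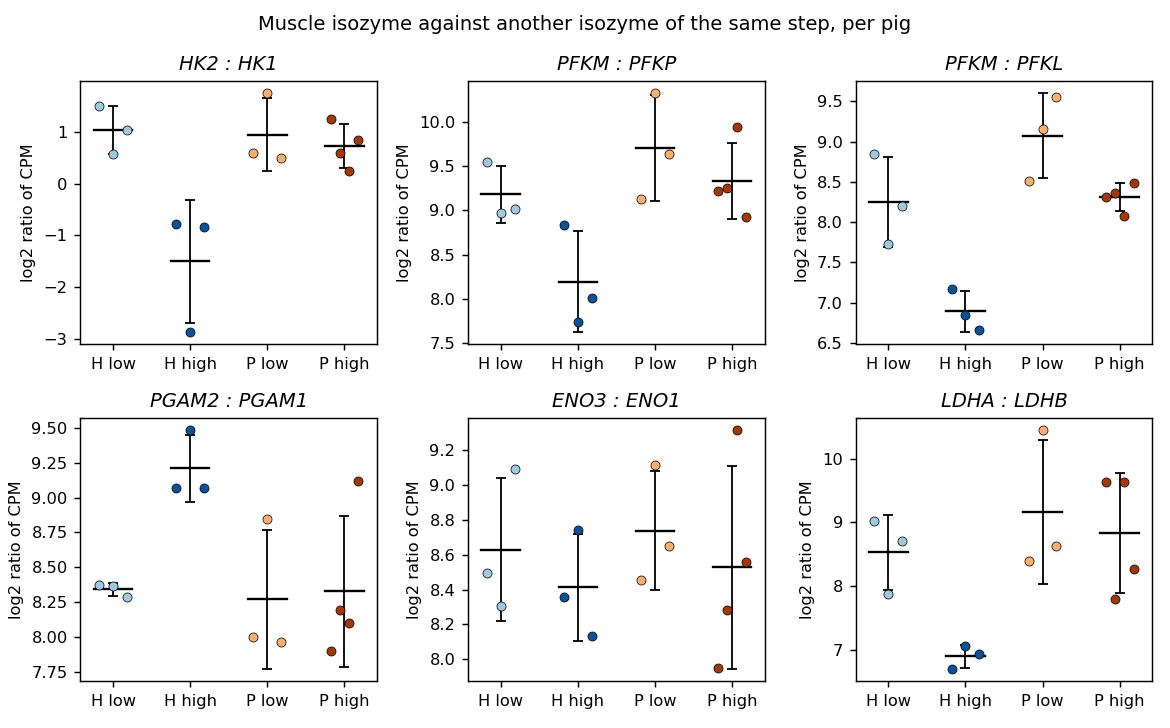
Log2 ratio of the CPM of a muscle isozyme to that of another isozyme of the same step (vertical axis, not starting at 0) in every pig (points) by breed and loin weight, with group mean (bar) and SD (whisker). HK2 to HK1 lies between 0.57 and 1.50 in Hampshire low-weight pigs and between -2.88 and -0.77 in high-weight pigs.

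Genes that feed, steer and drain the pathway were counted from lists of genes with a known role. The lists were chosen with earlier results of these data known, so their counts only describe them and are no independent comparison. Their Hampshire counts stand beside 12% of all genes tested called higher and 14.6% called lower, and the lists are small. Of 4 tested transporters of glucose and lactate, 3 were called lower in Hampshire high-weight pigs and 0 higher. SLC2A4 (GLUT4), the insulin-responsive glucose transporter, fell from 36.4 ± 7.01 to 16.5 ± 3.68 CPM (SD, n = 3 each; log2 fold change -1.15, edgeR adjusted p = 0.00811). SLC16A1 (MCT1), a carrier of lactate, fell from 28.7 ± 4.88 to 15.6 ± 2.89 CPM (-0.89, edgeR adjusted p = 0.0145), and SLC2A12, a further glucose transporter, fell by 0.67 on the log2 scale (edgeR adjusted p = 0.0194). SLC16A3 (MCT4), the lactate exporter of glycolytic fibres, had 172 to 205 CPM in Hampshire low-weight and 155 to 213 CPM in high-weight pigs, and 26.5 to 74.7 and 26.0 to 84.2 CPM in the corresponding Pietrain groups. It was called higher in Hampshire at low (2.11, edgeR adjusted p = 0.0119) and at high loin weight (1.69, edgeR adjusted p = 0.00220), opposite in direction to LDHA. Among 9 regulators of glycolytic flux 2 were called lower and 0 higher in Hampshire, namely PFKFB4 (-0.96), whose product sets the level of fructose 2,6-bisphosphate, and 1 of the 2 models named PFKFB1 (-1.08), while the other PFKFB1 model had 0.06.

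The lists below have the same Hampshire background of 12% of all genes called higher and 14.6% called lower. They too were chosen with earlier results known. Of 11 genes that take pyruvate into the mitochondrion, 3 were called lower and 1 higher in Hampshire. PDP1, a phosphatase that activates pyruvate dehydrogenase, fell from 20.7 ± 7.10 to 7.26 ± 1.03 CPM (log2 fold change -1.51, edgeR adjusted p = 0.00646). PDHA1 (-0.89) and DLAT (-0.63), subunits of pyruvate dehydrogenase, also fell, and PDK2 (0.65), a kinase that inactivates it, rose. PDK4, the fasting-induced kinase of the same family, spread from 10.3 to 212 CPM among the 6 Hampshire pigs and was not called (0.40, SE 1.05). In the pentose phosphate pathway, which branches off at glucose 6-phosphate, 2 of 5 genes rose and 0 fell, namely PGLS (1.25) and TALDO1 (0.73). None of 9 genes of the cytosolic NADH shuttles was called in Hampshire, where their edgeR adjusted p-values ranged from 0.0709 to 0.951. Of 15 transcription factors known to act on glycolytic or muscle metabolic genes, 8 fell and 0 rose, with SP1 (-1.74), PPARGC1A (-1.74) and SIX4 (-1.46) the lowest. PPARGC1A, a coactivator of mitochondrial genes, had 4.76 to 11.8 CPM in Hampshire low-weight and 1.975 to 3.36 CPM in Hampshire high-weight pigs. Pietrain low-weight pigs had 171 to 201 CPM of it. Pietrain high-weight pigs spread from 5.55 to 183 CPM, which reaches into the range of the Hampshire low-weight pigs. In Pietrain 0 genes of any of these lists were called by loin weight. The loin weight effect differed between breeds for PDP1 (-1.76, edgeR adjusted p = 0.0131), SP1 (-1.71, edgeR adjusted p = 0.0170) and PGLS (1.25, edgeR adjusted p = 0.0431). That stands beside 5.9% of the 12831 genes tested.

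**Figure D5:**
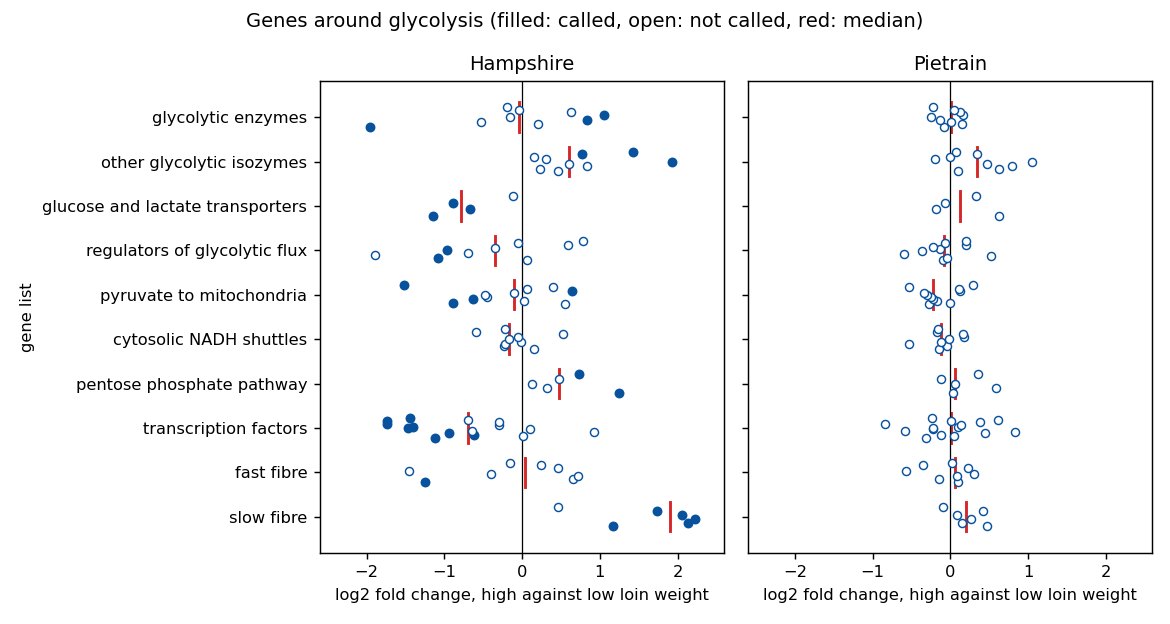
Log2 fold change of high against low loin weight (horizontal axis) for each tested gene of 10 lists in Hampshire (left) and Pietrain (right), filled where called, with the list median in red. The Hampshire medians run from -0.78 for the transporters to 1.90 for slow-fibre genes, and no Pietrain gene is filled.

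Markers of fibre type moved with loin weight in Hampshire. The Hampshire counts in these marker lists stand beside 12% of all genes tested called higher and 14.6% called lower. As the lists were chosen with earlier results of these data known, the counts are no independent comparison. Of 6 tested slow-fibre genes 5 were called higher and 0 lower (median log2 fold change 1.90), with TNNI1 (2.22), TNNT1 (2.13) and TNNC1 (2.06), the troponins of slow muscle, in front. Their summed level was 2865, 6656 and 3949 CPM in low-weight pigs and 17879, 12989.9 and 11768 CPM in high-weight pigs, with no overlap. Among 8 fast-fibre genes only MYH1, the fast IIx myosin heavy chain, was called (-1.25, edgeR adjusted p = 0.0390), and their summed level overlapped between the groups (105709 to 158465 CPM and 110180 to 117963 CPM). In Pietrain the slow-fibre sum ran from 33.2 to 8349 CPM in low-weight pigs and from 761 to 11252 CPM in high-weight pigs, and 0 genes of either list were called. Of other cell types, Hampshire high-weight pigs had 3 of 7 fibroblast genes (DCN, COL1A2 and COL3A1), 3 of 10 macrophage genes (CD14, TYROBP and AIF1), 2 of 7 endothelial genes (EGFL7 and TIE1) and 2 of 4 adipocyte genes (CIDEC and LIPE) called higher, and PLIN4 of the adipocyte list lower. Summed levels in Hampshire low-weight and high-weight pigs were 741 to 1610.0 and 1886 to 4939 CPM for fibroblast genes. They were 55.0 to 135 and 162 to 240.4 CPM for macrophage genes, and 164 to 209 and 238 to 278 CPM for endothelial genes. Adipocyte genes summed to 142 to 175 and 88.7 to 136 CPM, most of it PLIN4, with means of 143 and 67.7 CPM. The other 3 adipocyte genes had log2 fold changes above 0 (PLIN1 1.71, not called, CIDEC 2.20 and LIPE 1.82). Between breeds, 6 of the 10 macrophage genes were called higher in Hampshire at low loin weight, beside 7.84% of all genes tested. At high loin weight 9 of 10 were, beside 22.6%. Their summed level in Pietrain was 20.4 to 31.0 CPM in low-weight and 21.4 to 61.9 CPM in high-weight pigs. Also called higher in Hampshire at high loin weight, beside the same 22.6%, were 3 of 7 fibroblast and 4 of 7 endothelial genes. None of 3 blood genes was called by loin weight in Hampshire (edgeR adjusted p = 0.705 to 0.991), nor was the 1 heart gene tested, TNNT2 (edgeR adjusted p = 0.146). TNNT2 was called higher in Hampshire than in Pietrain at low loin weight, with overlapping CPM values (log2 fold change 3.41, SE 1.05, edgeR adjusted p = 0.0394). Of 5 liver models 2 were called higher, both named APOA1. The summed liver level was 15.6, 93.0 and 41.1 CPM in Hampshire low-weight pigs 1, 2 and 3. In high-weight pigs 8, 9 and 10 it was 54.0, 53.2 and 479 CPM, so that pig 10 alone lay above the low-weight range. Of 9 skeletal muscle genes, which in part are on the fibre lists too, 3 were called higher (CKM, MYH7 and TNNT1) and 1 lower (MYH1). The part of these cell types in the enzyme values was not tested.

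The 9 enzymes did not share a common profile over the 13 pigs. Against the mean of their standardized log2 CPM, Pearson's r was 0.90 for PKM, 0.78 for ENO3, 0.75 for GPI, 0.65 for PGAM2, 0.63 for GAPDH and 0.54 for PFKM, but -0.04 for PGK1, -0.15 for LDHA and -0.40 for HK2. Each enzyme is part of that mean, and the pigs fall into 4 groups, so that these values only describe the set. Outside the set, the genes most like the mean were DPF2 (r = 0.83, Spearman's rho = 0.86), SIAH2 (0.81, 0.65), CLTB (0.81, 0.77), AVPI1 (0.81, 0.54) and ISG20L2 (0.80, 0.78), picked as the highest among all genes tested in both breeds. After the group means were removed, r for these 5 lay between 0.78 and 0.84. Within groups, PFKM, GPI, PKM and PGK1 varied little between pigs, with an SD of log2 CPM at or below the 11.8th percentile of genes, whereas HK2 stood at percentile 79.3. These percentiles were not matched for level, and HK2 had only 26 to 503 counts per pig. Its level was at percentile 62.6, and that of the other 4 at 99.6 or above. The part of count depth in this contrast was not tested.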

How the data were processed

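Per the labels, RNA with integrity above 7.5 was made into unstranded TruSeq libraries and sequenced in 101 single-end cycles over 4 technical runs. The authors deposited whole-number counts per gene, in 1 table for each breed. The submitters' processing notes name FastQC, STAR, RSEM and DESeq2 with Sscrofa10.2, and the annotation release is not given in the sources used here. The other deposited columns, the authors' own comparisons, were not used apart from symbols and positions (coordinates in bases). Unstranded counts cannot separate a gene from an antisense partner, and gene-level counts do not separate splice forms.

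The members and lists were chosen with earlier results of these data known. Genes were filtered with filterByExpr and tested with edgeR 4.0.16 (R 4.3.3) on TMM-normalized counts by quasi-likelihood F-tests, within each breed and over all 13 pigs with 4 group means. SE is the log2 fold change divided by the square root of F. DESeq2 1.42.0, other scalings and filters, a length offset and leaving out each pig were alternatives. Isozyme ratios used CPM plus 0.5 (scipy 1.17.1). Genes named are the 9 enzymes, their tested isozymes with TPI1, and up to 3 called genes in each direction per list. PDK4, SLC2A4, SLC16A1 and SLC16A3, 5 genes of like profile, and markers used as tissue checks are named too. Of 166 listed symbols 127 were matched, and some further genes of these lists are not reported here. The scripts were tested on simulated data. Pigs of 1 group differed beyond sampling noise (chi-square per degree of freedom 23.7 to 141), so each was counted. Depth was 11312755 to 20134612 counts, and p-values set differences between groups against the spread between pigs. No sequence is shown.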

Additional observations from a re-analysis of the deposited data

Results flagged for a closer look

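In Pietrain high-weight pigs, the only group of 4, Dixon's gap test (the distance of the extreme pig to its neighbour over the whole range) singled out 2 of 15 values. PKM in pig 7 (9649 CPM, against 6389.8 to 6926 in the others) had a ratio of 0.836, and LDHA in pig 6 (20642 CPM, against 15509 to 16209.9) had 0.863. Chance marks about 1 in 20 such groups. The loin weight effect on HK2 differed between the breeds by -1.84 on the log2 scale in the edgeR interaction test over all 13 pigs (adjusted p = 0.0338). All 3 Hampshire high-weight pigs lay below the low-weight pigs, and the groups overlapped in Pietrain. The interaction call held in only 6 of the 13 fits that left out 1 pig (edgeR adjusted p up to 0.0738). It was lost with the length offset (edgeR adjusted p = 0.0558).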

How the results depend on the processing

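The count of called enzymes in Hampshire was 5 with DESeq2 instead of 3, and 1 to 3 when 1 pig was left out. The set also changed with scaling and filter. PFKM was called with library totals alone (edgeR adjusted p = 0.0113) and with at least 10 counts in every pig (edgeR adjusted p = 0.0314). GAPDH was not called with that filter or with no filter. With the length offset PFKM was called, and GAPDH and PGAM2 were not. For the difference between breeds the count of called enzymes was 2 with DESeq2, 0 with the length offset and 0 to 1 with 1 pig left out, instead of 1. At low loin weight it was 2 with DESeq2 and 0 to 2 with 1 pig left out, instead of 1. The Pietrain count was 0 in every setting run. Each log2 fold change of an enzyme whose sign turned was not called in any setting. With the length offset they included PKM in Hampshire (0.051) and PFKM in Pietrain (-0.017). With library totals alone they included HK2 in Pietrain (0.0015) and PKM between high-weight groups (-0.090), and they included PFKM in Pietrain with DESeq2 (-0.0043) or 1 fit over 13 pigs (-0.028). With 1 pig left out, log2 fold changes ranged from -0.16 to 0.019 for PKM in Hampshire. In Pietrain they ranged from -0.29 to 0.10 for HK2, -0.17 to 0.12 for PFKM, -0.075 to 0.33 for PGAM2, -0.083 to 0.25 for ENO3 and -0.12 to 0.14 for PKM. In the difference of the loin weight effect between breeds, the sign turned with library totals for GPI (-0.17), PGK1 (-0.14) and LDHA (-0.23), and for LDHA also with the length offset (-0.088) and no filter (-0.0035). With 1 pig left out these differences ranged from -0.12 to 0.20 for GPI, -0.064 to 0.26 for PGK1, -0.20 to 0.15 for LDHA and -0.21 to 0.10 for PKM. Between the breeds themselves log2 fold changes ranged from -0.21 to 0.044 for GAPDH at low and -0.22 to 0.075 for PFKM at high loin weight. Differences of log2 ratios in Pietrain ranged from -0.45 to 0.18 for HK2 to HK1, -0.21 to 0.35 for PGAM2 to PGAM1 and -0.71 to 0.32 for LDHA to LDHB, and in Hampshire from -0.38 to 0.013 for ENO3 to ENO1.

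Over all genes, the calls for the difference between breeds were 757, against 1242 with DESeq2, 483 with the length offset and 379 to 1052 with 1 pig left out. Hampshire calls ran from 1224 to 3049 with 1 pig left out, instead of 3256, and the low-weight breed calls fell from 2300 to 109, 501, 163 and 111 without Hampshire pigs 2 or 3 or Pietrain pigs 5 or 8. Library totals alone moved the median log2 fold change in Hampshire from 0.03 to -0.12 and the share of higher calls from 45.1% to 28.8%. For the difference between breeds that share fell from 28.4% to 10.9% (median -0.29) and between high-weight groups from 48.3% to 33.1% (median -0.22). No enzyme called in Hampshire lost its call under it. The causes of these shifts were not tested. Apart from the isozyme ratios, values of single genes outside the 9 enzymes under the alternatives are not reported here. How far the calls of those genes hold is thus not shown. No paired analysis was possible because the numbers only name pigs within a breed, and each pig belongs to a single group. The number of pigs per group limits all tests. HK2 had as few as 26 counts in a pig, the other enzymes at least 18407.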
